A study of Mus musculus with 24 samples.

Results

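The laminin and integrin genes were taken from the count table as the protein-coding genes whose symbols are Lama, Lamb or Lamc with a number, Itga with a number or a letter, Itga2b, or Itgb with a number. This gave 37 of 49671 genes, of which 11 encode laminin chains (5 alpha, 3 beta and 3 gamma) and 26 encode integrin subunits (18 alpha and 8 beta). They were followed through 24 RNA-seq libraries, 4 from each of 6 groups of mouse cells: NSC, AGES, neoAC direct, neoAC CellC, AdAC direct and AdAC CellC.

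NSC were neural stem cells made from the embryonic stem cell line GSC-5003, which came from C57BL/6N mice. They were grown with EGF and FGF on gelatin, at passages 50 to 60. AGES (astrocytes generated from embryonic stem cells) were the same NSC after 3 to 5 days with 20 ng/ml BMP4 on a laminin coat. Both groups are therefore 1 line, and their replicates were cultures from different passages. neoAC were astrocytes from the hemispheres of C57BL/6J mice 4 to 8 days old, and AdAC were astrocytes from mice 100 to 140 days old of that strain. They were pulled out with magnetic beads against ACSA-2, an astrocyte surface antigen on the protein encoded by Atp1b2, and each replicate was an isolation from 2 pooled mice. Cells were frozen at once (direct) or kept for 7 to 10 days in wells coated with laminin at 2 µg/ml (CellC). The neonatal preparation removed the meninges without a step against myelin, while the adult preparation had a debris and red cell removal step, so age and dissociation protocol cannot be told apart. AGES, neoAC CellC and AdAC CellC had all been in contact with added laminin protein, and NSC and both direct groups had not. AGES and the cultured primary cells were grown in different media.

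Laminins are large secreted proteins in which an alpha, a beta and a gamma chain form a cross-shaped trimer, and they build the basement membranes on which vessels, the brain surface and many epithelia rest. Astrocyte endfeet border such membranes around vessels and below the pia. Integrins are receptors at the cell surface, each a pair of an alpha and a beta subunit, that bind matrix proteins and link them to the actin cytoskeleton. Itga3, Itga6 and Itga7 products bind laminin with the Itgb1 product, and Itga6 also with that of Itgb4. The Itga5, Itga8, Itgav and Itga2b products recognise fibronectin, vitronectin and related proteins, the Itga1, Itga2, Itga10 and Itga11 products bind mainly collagen, and the Itgad, Itgal, Itgam and Itgax products with that of Itgb2 are receptors of leukocytes.

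Library totals ran from 27904126 to 37997368 counts. Levels are TMM-scaled CPM, the count of a gene relative to its library's total, as mean ± SD of 4 libraries or for replicates 1 to 4 in order, and 3 counts per library came to 0.0846 to 0.0997 CPM as the mean of a group's libraries. In all, 36 members passed the filter on low counts and were tested, and Itgax, a leukocyte receptor, did not. A mean of at least 1 CPM in some group was reached by 34 members, and Itgae, Itgb7 and Itgax stayed below it everywhere. AdAC CellC expressed the widest set, with 33 members at 1 CPM or more and none at the floor of 3 counts in every library. NSC had 20 and AGES 22 such members, and 8 members were at the floor in each. The highest mean lay in AdAC CellC for 10 of the 34 members, in NSC for 7, in AGES for 6, in neoAC direct for 5, in AdAC direct for 4 and in neoAC CellC for 2. Exons of Itga4, Itga7, Itga8, Itgad, Itgav, Itgb4, Lama2, Lama3 and Lamc3 overlap those of a gene on the opposite strand, and exons of Itga1, Itga10, Itgad and Itgam those of a gene on the same strand. The strand setting of the counting was not given in the sources used here, so reads of such pairs cannot be told apart.

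**Figure D1:**
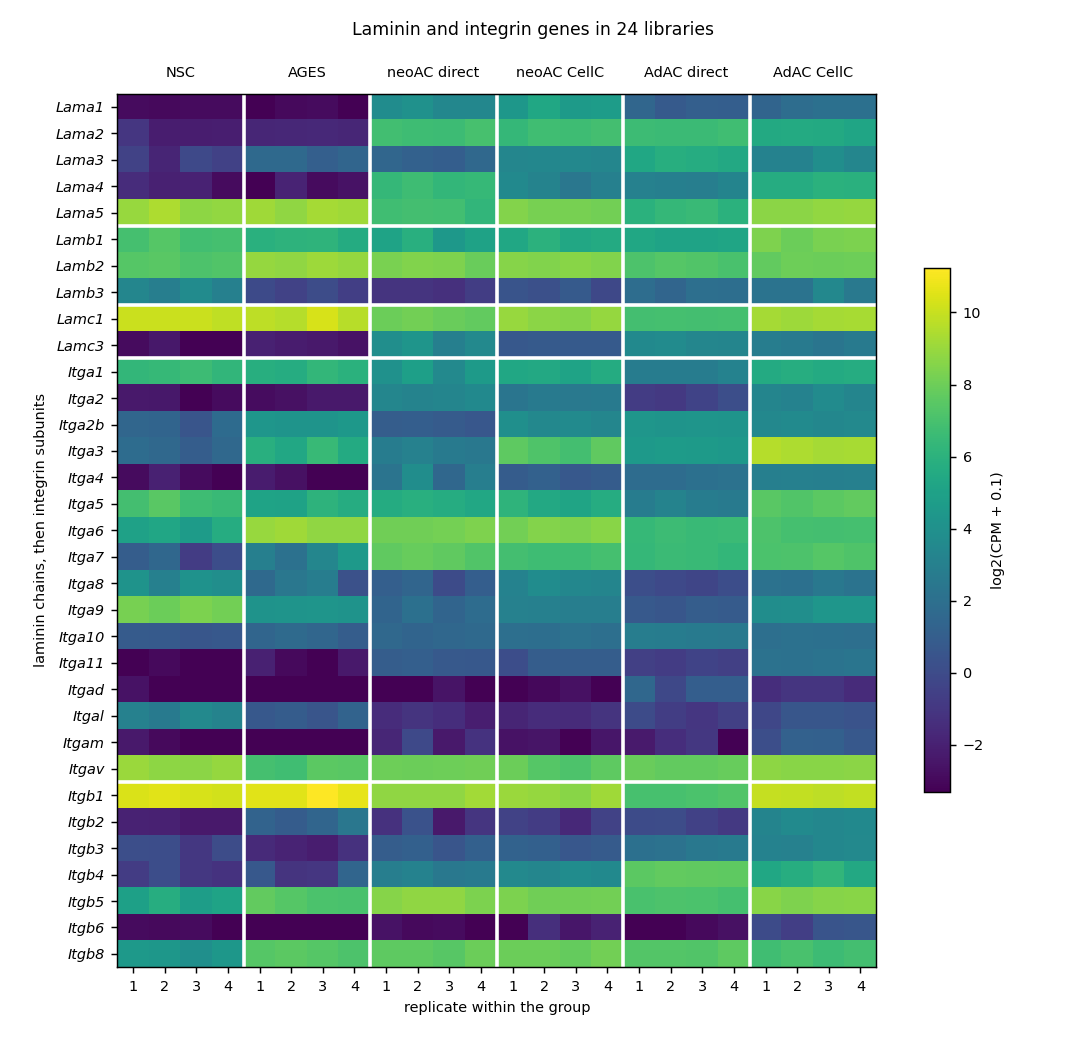
Colours give log2(CPM + 0.1) of 33 of the 34 members with at least 1 CPM in a group (rows, laminin chains above integrin subunits) in 24 libraries (columns, replicates 1 to 4 of each group). Lama1, Lama2 and Lama4 are dark in the 8 NSC and AGES libraries and brighter in the 16 libraries of primary cells, and Itga3 is brightest in the 4 AdAC CellC libraries.

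The sorted cells were checked against lists of 8 markers per cell type. The astrocyte list summed to 16940 to 23250 CPM in the direct groups, 4866 to 5670 in neoAC CellC, 6172 to 6833 in AGES, 1900 to 2442 in NSC and 784 to 1155 in AdAC CellC. Oligodendrocyte markers summed to 26350 to 29350 CPM in AdAC direct and 4201 to 10650 in AdAC CellC, with all 8 at 1 CPM or more in both, and to 18.5 to 395 in the other groups. Endothelial markers were highest in neoAC direct (78.8 to 329.6 CPM, the top value in replicate 2), then AdAC direct (90.5 to 97.3), AdAC CellC (52.3 to 69.1), neoAC CellC (8.798 to 12.2), NSC (3.88 to 6.71) and AGES (0.858 to 1.44, Cdh5 at 0). Mural markers summed to 800 to 1286 CPM in neoAC direct, 449 to 479.7 in AdAC direct, 195 to 239 in AdAC CellC and 86.1 to 204 in the others. In NSC and AGES only Notch3 of the mural list reached 1 CPM (120 ± 54.3 and 131 ± 6.592 CPM). Fibroblast and meningeal markers summed to 1133 to 1592 CPM in AdAC CellC, 497 to 792 in neoAC CellC, 377 to 608 in neoAC direct, 109 to 132 in AdAC direct and 12.1 to 19.8 in NSC and AGES. Of this list, Col1a1 (813 ± 147 against 191 ± 38.1 CPM) and Col1a2 (447 ± 64.96 against 161 ± 38.7 CPM) were higher in AdAC CellC than in neoAC CellC, and the other 6 were higher in neoAC CellC. Ependymal and choroid markers summed to 2017 to 3044 CPM in neoAC CellC, 715 to 1405 in neoAC direct, 1156 to 1359 in AdAC direct, 499 to 736 in AdAC CellC, 66.3 to 90.4 in AGES and 16.4 to 25.5 in NSC. Oligodendrocyte precursor markers summed to 1837 to 2182 CPM in NSC, 1116 to 1333 in AdAC direct and 850 to 1189 in neoAC direct. They reached 509.5 to 1046 CPM in neoAC CellC, 505 to 783 in AGES and 379 to 612 in AdAC CellC. Neural stem cell markers summed to 6733 to 8557 CPM in neoAC direct, 2408 to 3053 in NSC and 1846 to 2645 in neoAC CellC. Their sums were 1766 to 2117 CPM in AdAC CellC, 1309 to 1728 in AGES and 524.5 to 616 in AdAC direct. In bulk RNA, fewer cells of a type and less RNA per cell cannot be told apart.

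Promoter windows are shown for 4 members that carry the main contrasts: Itga5 and Itgb1, whose products pair as the fibronectin receptor and which both rose with culture of adult cells, Lama5, an alpha chain that was abundant in every group, and Lama2, which was near the floor in the stem cell line. Each window is the 250 bases before the gene's start in the RefSeq table (build GRCm38.p6), holds no annotated exon base, and is printed 5′ to 3′ on the gene's strand. Capitals mark the letters GGGCGG (the GC box), CATTCC (bound by TEAD factors) or GGCGCC (bound by SMAD1/5) on either strand. The GC box and the SMAD1/5 letters can overlap.

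Itga5 (chr15:103366792-103367041, minus strand): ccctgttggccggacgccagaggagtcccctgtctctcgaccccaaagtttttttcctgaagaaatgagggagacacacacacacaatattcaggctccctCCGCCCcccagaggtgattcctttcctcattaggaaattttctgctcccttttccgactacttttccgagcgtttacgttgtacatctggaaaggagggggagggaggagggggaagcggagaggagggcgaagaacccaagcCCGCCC
Itgb1 (chr8:128685404-128685653, plus strand): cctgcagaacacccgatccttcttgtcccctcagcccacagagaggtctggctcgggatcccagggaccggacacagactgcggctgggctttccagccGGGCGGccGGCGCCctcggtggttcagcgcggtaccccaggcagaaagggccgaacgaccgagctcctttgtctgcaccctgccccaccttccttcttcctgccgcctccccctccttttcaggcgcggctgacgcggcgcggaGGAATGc
Lama5 (chr2:180225860-180226109, minus strand): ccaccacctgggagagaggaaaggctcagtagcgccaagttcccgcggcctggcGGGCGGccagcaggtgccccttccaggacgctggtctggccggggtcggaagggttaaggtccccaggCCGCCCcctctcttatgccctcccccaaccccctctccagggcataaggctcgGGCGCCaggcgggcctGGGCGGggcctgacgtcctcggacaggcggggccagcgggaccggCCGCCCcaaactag
Lama2 (chr10:27616943-27617192, minus strand): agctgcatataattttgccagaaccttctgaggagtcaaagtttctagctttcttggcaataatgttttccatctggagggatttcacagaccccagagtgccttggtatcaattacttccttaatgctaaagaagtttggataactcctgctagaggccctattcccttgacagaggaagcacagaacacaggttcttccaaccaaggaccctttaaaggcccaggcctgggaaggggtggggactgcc

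The Itga5 window held 2 GC boxes, the Itgb1 window 1 GC box with 1 TEAD and 1 SMAD1/5 match, the Lama5 window 4 GC boxes with 1 SMAD1/5 match, and the Lama2 window none. GC contents were 55.6%, 68.0%, 72.4% and 47.2%, against a median of 52.4% over all windows. Of 32851 windows of this length in the RefSeq table, 32.7% held a GC box, 12.6% the TEAD letters and 9.59% the SMAD1/5 letters. The letters TGANTCA (AP-1, 6.75% of windows), CCGGAAG (ETS, 6.91%) and CACGTG (E-box, 6.02%) were searched as well and lay in none of these 4 windows. In all, 23 of the 37 members had a start in the table. These matches describe the letters in the window alone. In the Gencode vM21 annotation of GRCm38, from which exon lengths were taken, Itga5 lies on chromosome 15 from 103344286 to 103366763, Itgb1 on chromosome 8 from 128685654 to 128733200, Lama5 on chromosome 2 from 180176373 to 180225859, and Lama2 on chromosome 10 from 26980036 to 27619758. The Lama2 window lies inside that gene, between exons. Itga3 is on chromosome 11 (95044474 to 95076801), Itga6 on chromosome 2 (71745616 to 71858416) and Lama4 on chromosome 10 (38965515 to 39110188).

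Among the laminin alpha chains, the stem cell line used Lama5 almost alone, whereas primary astrocytes used up to 5 chains. Lama5, a chain of vascular and epithelial membranes, read 511, 702, 433 and 460 CPM in NSC and 566, 453, 621 and 567 in AGES. Levels of Lama5 were 108, 119.5, 114 and 75.5 in neoAC direct and 365, 298, 305 and 279 in neoAC CellC. Adult Lama5 levels were 62.1, 81.8, 92.5 and 62.6 in AdAC direct and 423, 413, 471 and 495 in AdAC CellC. Per kilobase of exon it made up 99.8 ± 0.08904% of the summed alpha-chain level in NSC and 99.4 ± 0.167% in AGES, but 36.6 ± 5.34% in neoAC direct and 35.97 ± 4.28% in AdAC direct. Its share was 71.5 ± 4.65% in neoAC CellC and 81.96 ± 0.994% in AdAC CellC, so both cultured groups lay between the direct cells and the stem cell line, with no overlap of libraries.

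Lama1, a chain of early embryonic membranes, read 0.0326, 0.0304, 0.0318 and 0.0334 CPM in NSC and 0, 0.02900, 0.03204 and 0 in AGES. Levels of Lama1 were 13.6, 16.3, 10.6 and 10.6 in neoAC direct and 20.7, 39.8, 24.7 and 26.6 in neoAC CellC. Adult Lama1 levels were 2.73, 1.67, 2.02 and 1.95 in AdAC direct and 2.49, 3.62, 3.98 and 4.096 in AdAC CellC. It was at the floor in all 8 libraries of the stem cell line, and highest in the cultured neonatal cells, the group with the highest ependymal and choroid marker sum, whose part in its level was not tested. Lama2, the chain of muscle and of the membrane at astrocyte endfeet, read 0.391, 0.121, 0.127 and 0.134 CPM in NSC and 0.195, 0.203, 0.224 and 0.198 in AGES. Levels of Lama2 were 114, 105, 101 and 127 in neoAC direct and 83.7, 109, 102 and 117 in neoAC CellC. Adult Lama2 levels were 102, 97.5, 95.99 and 109 in AdAC direct and 45.98, 47.1, 45.5 and 37.5 in AdAC CellC. All 16 libraries of primary cells exceeded every NSC and AGES library, and AdAC CellC lay below the other primary groups.

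Lama4, a chain of the vessel wall, read 0.261, 0.152, 0.159 and 0.0334 CPM in NSC and 0, 0.174, 0.03204 and 0.0658 in AGES. Levels of Lama4 were 84, 105, 79.6 and 85.4 in neoAC direct and 11.7, 8.91, 5.38 and 7.84 in neoAC CellC. Adult Lama4 levels were 8.34, 7.63, 7.25 and 9.34 in AdAC direct and 50.4, 50.6, 62.7 and 61.3 in AdAC CellC. It was high in neoAC direct and AdAC CellC and low in neoAC CellC and AdAC direct, so that its order between direct and cultured cells was turned around between the ages. Lama3, a chain of epithelial anchoring membranes, read 0.619, 0.182, 0.828 and 0.602 CPM in NSC and 3.004, 3.05, 2.02 and 2.600 in AGES. Levels of Lama3 were 2.67, 2.22, 1.903 and 2.89 in neoAC direct and 10.3, 10.5, 11.1 and 10.2 in neoAC CellC. Adult Lama3 levels were 40.4, 56.3, 52.01 and 44.3 in AdAC direct and 8.63, 8.75, 14.3 and 10.1 in AdAC CellC. It was highest in AdAC direct, the group with the highest oligodendrocyte marker sum, and the part of those cells in its level was not tested. In neoAC direct, Lama2 held 27.7 ± 4.56% and Lama4 29.5 ± 2.196% of alpha chains per kilobase, while in AdAC direct Lama2 held 34.4 ± 4.502% and Lama3 24.7 ± 1.88%.

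Lamb2 was the main beta chain, with 92.7 ± 1.16% of the beta-chain level per kilobase in AGES, 92.2 ± 1.83% in neoAC CellC, 93.1 ± 2.39% in neoAC direct and 85.3 ± 2.02% in AdAC direct. Lamb1 took a larger share in NSC (32.1 ± 2.21%) and AdAC CellC (42.8 ± 5.18%) than in AGES (7.19 ± 1.15%), neoAC direct (6.81 ± 2.37%), neoAC CellC (7.49 ± 1.86%) and AdAC direct (12.9 ± 1.72%). Its level was 306 ± 41.8 CPM in AdAC CellC, 132 ± 23.3 in NSC, 62.1 ± 9.42 in AGES, 48.8 ± 10.8 in neoAC CellC, 37.2 ± 15.3 in neoAC direct and 36.6 ± 2.88 in AdAC direct. Lamb2 lay at 492 ± 40.5 CPM in AGES, 371 ± 20.2 in neoAC CellC, 313 ± 52.03 in neoAC direct, 244 ± 21.3 in AdAC CellC, 162 ± 17.1 in NSC and 149.9 ± 14.9 in AdAC direct. Lamb3, a beta chain of epithelia, reached at most 12.7 CPM in any library and was highest in NSC (9.51 ± 2.37 CPM), with 6.46 ± 3.002 in AdAC CellC and 3.44 ± 0.581 in AdAC direct.

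Lamc1, the gamma chain of most laminins, had its highest means in the stem cell line, with 1017 ± 73.9 CPM in NSC and 944 ± 252 in AGES, whose libraries overlapped. It lay at 604 ± 37.7 in AdAC CellC, 448 ± 58.3 in neoAC CellC, 246 ± 25.4 in neoAC direct and 120.1 ± 2.16 in AdAC direct. Lamc3, a gamma chain found in brain and vessels, read 0.0326, 0.0911, 0 and 0 CPM in NSC and 0.156, 0.116, 0.0961 and 0.0658 in AGES. Levels of Lamc3 were 14.6, 19.2, 7.58 and 11.3 in neoAC direct and 1.53, 1.65, 1.64 and 1.61 in neoAC CellC. Adult Lamc3 levels were 11.9, 12.7, 10.1 and 9.85 in AdAC direct and 7.06, 5.95, 4.86 and 6.08 in AdAC CellC. Both direct groups exceeded their cultured counterparts, and the stem cell line had at most 0.156 CPM.

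**Figure D2:**
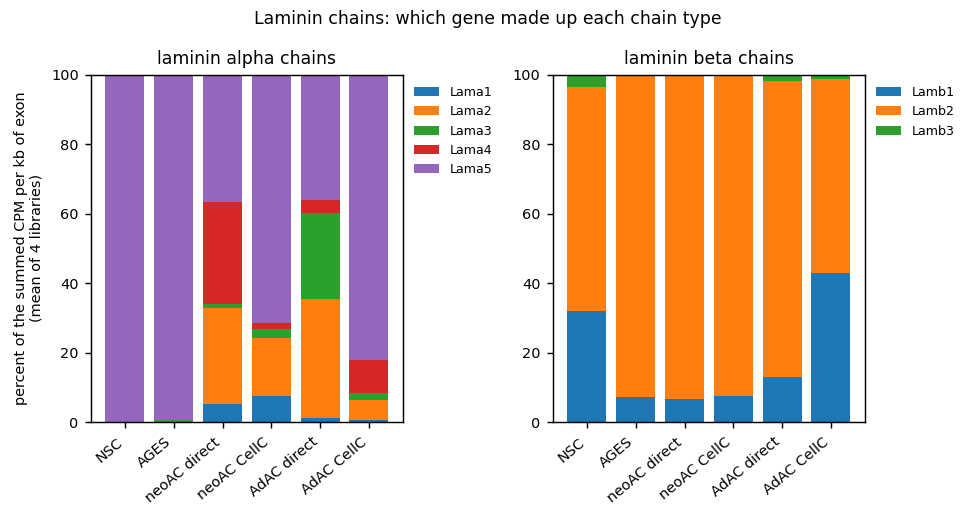
Bars split the summed CPM per kilobase of exon of the laminin alpha and beta chains (percent, mean of 4 libraries) among their genes, in 6 groups. Lama5 fills the NSC and AGES alpha bars (99.8% and 99.4%), and Lamb1 fills 42.8% of the AdAC CellC beta bar.

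Per kilobase of exon, Itga6 had the highest level of the alpha subunits in AGES, neoAC direct and neoAC CellC, Itgav in NSC and AdAC direct, and Itga3 in AdAC CellC. The laminin receptor Itga3 read 3.49, 2.95, 1.88 and 2.88 CPM in NSC and 57.7, 42.1, 88.1 and 46.5 in AGES. Levels of Itga3 were 6.76, 8.45, 6.22 and 5.66 in neoAC direct and 196, 147, 118 and 203 in neoAC CellC. Adult Itga3 levels were 23.6, 25.6, 23.9 and 21.95 in AdAC direct and 790.1, 688, 609 and 628 in AdAC CellC. It was lowest in NSC and highest in AdAC CellC, where it made up 49.7 ± 3.26% of the alpha-subunit level per kilobase. Itga6, the other main laminin receptor of neural cells, read 32.1, 38.4, 25.1 and 50.9 CPM in NSC and 514, 569.8, 451 and 443 in AGES. Levels of Itga6 were 273, 265, 292 and 337 in neoAC direct and 279, 369, 337 and 398 in neoAC CellC. Adult Itga6 levels were 87.3, 101, 93.7 and 96.6 in AdAC direct and 143, 123, 117 and 120.3 in AdAC CellC. AGES were highest, with Itga6 at 54.8 ± 8.54% of alpha subunits per kilobase against 3.41 ± 1.08% in NSC and 5.84 ± 0.198% in AdAC CellC.

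Itga7, a laminin receptor first known from muscle, read 1.86, 2.79, 0.509 and 1.003 CPM in NSC and 7.73, 4.24, 10.03 and 23.4 in AGES. Levels of Itga7 were 206, 232, 208 and 154 in neoAC direct and 116, 106, 105 and 124 in neoAC CellC. Adult Itga7 levels were 81.8, 97.4, 91.2 and 79.2 in AdAC direct and 140, 146, 165 and 146 in AdAC CellC. Every library of primary cells exceeded every library of the stem cell line, and AGES varied from 4.24 to 23.4 CPM among themselves. Itga9, a receptor for tenascin and other matrix proteins, read 308, 245, 323 and 282 CPM in NSC and 17.8, 18.3, 19.3 and 17.8 in AGES. Levels of Itga9 were 2.47, 3.96, 2.51 and 3.43 in neoAC direct and 8.24, 7.91, 7.48 and 7.32 in neoAC CellC. Adult Itga9 levels were 1.56, 1.39, 1.87 and 1.72 in AdAC direct and 14, 14.7, 20.03 and 20.04 in AdAC CellC. NSC stood far above the rest, and there Itga9 (31.6 ± 4.19%) and Itgav (36.1 ± 3.42%) led the alpha subunits per kilobase. Itgav, the subunit shared by vitronectin and latent TGF-beta receptors, lay at 464 ± 54.1 CPM in NSC, 407 ± 16.99 in AdAC CellC, 262 ± 8.95 in neoAC direct, 222 ± 14.2 in AdAC direct, 187 ± 47.3 in neoAC CellC and 151 ± 42.1 in AGES.

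Itga5, the fibronectin receptor subunit, read 116, 178, 106 and 94.6 CPM in NSC and 34.7, 33.7, 67.1 and 51.5 in AGES. Levels of Itga5 were 50.2, 58.5, 51.5 and 42.3 in neoAC direct and 71.4, 44, 35.7 and 51.4 in neoAC CellC. Adult Itga5 levels were 6.92, 8.93, 6.72 and 6.26 in AdAC direct and 183, 157, 185 and 213 in AdAC CellC. AdAC direct was the low group, with all libraries at 8.93 CPM or less, and the lowest library elsewhere read 33.7. Itga8, a receptor for nephronectin and fibronectin, read 18, 8.14, 17.1 and 14.3 CPM in NSC and 3.08, 5.42, 7.02 and 1.12 in AGES. Levels of Itga8 were 2.05, 2.55, 0.917 and 1.93 in neoAC direct and 8.58, 13.6, 10.6 and 9.73 in neoAC CellC. Adult Itga8 levels were 1.03, 0.834, 0.713 and 0.987 in AdAC direct and 4.45, 4.08, 5.53 and 4.499 in AdAC CellC. It was highest in NSC and neoAC CellC. Itga2b, the platelet fibrinogen receptor subunit, read 2.74, 2.49, 1.34 and 3.31 CPM in NSC and 19.9, 18.4, 18.5 and 21.5 in AGES. Levels of Itga2b were 1.82, 1.94, 1.699 and 1.46 in neoAC direct and 15.1, 10.9, 12.4 and 10.1 in neoAC CellC. Adult Itga2b levels were 19.6, 18.5, 19.02 and 18.2 in AdAC direct and 11.2, 12.2, 10.4 and 11.6 in AdAC CellC. AGES and AdAC direct were high, and neoAC direct and NSC low.

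Of the collagen receptors, Itga2 read 0.0978, 0.0911, 0 and 0.0334 CPM in NSC and 0.03901, 0.05801, 0.0961 and 0.0987 in AGES. Levels of Itga2 were 10.2, 8.92, 9.68 and 11.8 in neoAC direct and 4.898, 6.21, 5.74 and 6.12 in neoAC CellC. Adult Itga2 levels were 0.497, 0.433, 0.654 and 1.04 in AdAC direct and 9.85, 8.77, 12.8 and 9.898 in AdAC CellC. It was present in both neonatal groups and AdAC CellC, low in AdAC direct and at the floor in NSC and AGES. Itga1 was present in every group, at 86.3 ± 11.5 CPM in NSC, 61.8 ± 11.9 in AGES, 50.5 ± 3.04 in AdAC CellC, 42.1 ± 6.38 in neoAC CellC, 20.3 ± 7.803 in neoAC direct and 7.31 ± 0.846 in AdAC direct. Itga10 kept between 1.57 and 6.48 CPM as a group mean, highest in AdAC direct (6.48 ± 0.5003), and Itga11 reached 4.56 ± 0.251 CPM in AdAC CellC and at most 0.07095 in NSC and AGES.

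Leukocyte integrins were low throughout. Itgb2, their shared beta subunit, read 0.163, 0.152, 0.0955 and 0.1003 CPM in NSC and 2.42, 1.77, 2.56 and 5.398 in AGES. Levels of Itgb2 were 0.325, 1.16, 0.102 and 0.366 in neoAC direct and 0.624, 0.498, 0.222 and 0.637 in neoAC CellC. Adult Itgb2 levels were 0.887, 0.958, 0.594 and 0.423 in AdAC direct and 9.27, 12.4, 10.7 and 11.8 in AdAC CellC. AdAC CellC stood apart at 9.27 CPM and above, and AGES exceeded NSC in every library. Of its partners, Itgam was also highest in AdAC CellC, at 1.698 ± 0.532 CPM and at most 0.365 as a mean elsewhere. Itgal was instead highest in NSC (8.62 ± 2.13 CPM) and Itgad in AdAC direct (1.89 ± 0.835 CPM). Of the microglia and macrophage markers, Cx3cr1 and Aif1 were at 0 in NSC. From AdAC direct to AdAC CellC, their means went up for Tyrobp (0.779 ± 0.158 to 5.55 ± 1.18 CPM), Ctss (3.41 ± 0.611 to 7.99 ± 1.71), Trem2 (0.647 ± 0.2498 to 2.94 ± 0.634) and Aif1 (0.191 ± 0.0832 to 0.722 ± 0.2201). They went down for P2ry12 (3.96 ± 0.471 to 0.747 ± 0.3302 CPM), Cx3cr1 (2.78 ± 0.706 to 0.715 ± 0.418) and Csf1r (7.23 ± 1.77 to 5.96 ± 1.37), and the part of such cells in the Itgb2 level was not tested. Itga4, a receptor of leukocytes for vascular adhesion proteins and fibronectin, lay at 7.799 ± 0.177 CPM in AdAC CellC, 7.23 ± 4.88 in neoAC direct, 3.83 ± 0.526 in AdAC direct and 1.82 ± 0.2898 in neoAC CellC.

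Itgb1, the beta subunit shared by most laminin, collagen and fibronectin receptors, had the highest mean beta-subunit level per kilobase in every group but AdAC direct. It read 1360, 1546, 1293 and 1196 CPM in NSC and 1507, 1499, 2394 and 1654 in AGES. Levels of Itgb1 were 457, 454, 449 and 581 in neoAC direct and 523, 492, 406 and 564 in neoAC CellC. Adult Itgb1 levels were 128, 128, 135 and 157 in AdAC direct and 1006, 957, 870.2 and 950.3 in AdAC CellC. Per kilobase it made up 96.5 ± 0.652% of beta subunits in NSC, 87.01 ± 3.71% in AGES and 63.8 ± 2.09% in AdAC CellC. Its share was 53.3 ± 2.805% in neoAC CellC and 47.1 ± 5.445% in neoAC direct, where Itgb5 held 45.05 ± 6.384%. In AdAC direct it was 28.9 ± 2.196%. There Itgb5, a vitronectin receptor subunit, held 32.5 ± 2.52%, Itgb4 24.4 ± 1.09% and Itgb8, the subunit that activates latent TGF-beta in brain, 13.1 ± 1.35%. Itgb4, the hemidesmosome laminin receptor, read 0.489, 1.002, 0.414 and 0.334 CPM in NSC and 1.52, 0.348, 0.385 and 2.57 in AGES. Levels of Itgb4 were 7.48, 8.58, 5.47 and 6.09 in neoAC direct and 11.5, 10.2, 13.5 and 12 in neoAC CellC. Adult Itgb4 levels were 185, 209, 206 and 195 in AdAC direct and 39.9, 53.3, 74.8 and 43.7 in AdAC CellC. AdAC direct stood highest and AdAC CellC next, the order of the oligodendrocyte marker sums, and the highest of the AdAC CellC libraries in both measures was replicate 3. In AdAC direct, replicate 2 had the highest Itgb4 and the lowest marker sum (26350 CPM), and replicate 4 the highest sum (29350 CPM). Between the neonatal groups the order was not shared, with Itgb4 higher in neoAC CellC and the mean marker sum higher in neoAC direct. Whether oligodendrocyte RNA contributed to Itgb4 was not tested.

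Itgb5 lay at 403 ± 55.9 CPM in neoAC direct, 383 ± 28.5 in AdAC CellC, 289 ± 28.6 in neoAC CellC, 162 ± 36.5 in AGES, 134 ± 8.85 in AdAC direct and 36.3 ± 11.2 in NSC. Itgb8 lay at 249 ± 23.9 CPM in neoAC CellC, 203 ± 30.7 in neoAC direct, 169 ± 20.96 in AdAC direct, 168 ± 17.7 in AGES, 114 ± 13.1 in AdAC CellC and 19.8 ± 3.58 in NSC, so NSC were low for both. Itgb3, the other vitronectin receptor subunit, reached 9.77 ± 1.42 CPM in AdAC CellC, and Itgb6, an epithelial subunit, reached 1.03 ± 0.374 CPM there and at most 0.288 CPM in any other library.

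**Figure D3:**
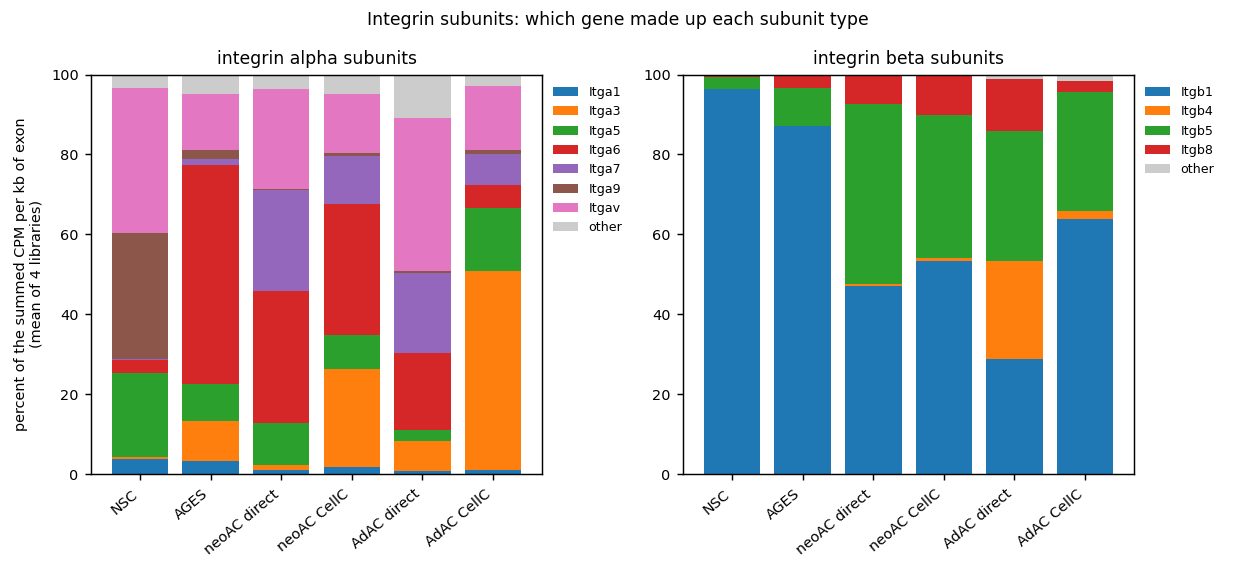
Bars split the summed CPM per kilobase of exon of the integrin alpha (left) and beta (right) subunits (percent, mean of 4 libraries) among their genes, with minor genes grouped as other. Itga6 is 54.8% of the AGES alpha bar, Itga3 49.7% of the AdAC CellC alpha bar, and Itgb4 24.4% of the AdAC direct beta bar.

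**Figure D4:**
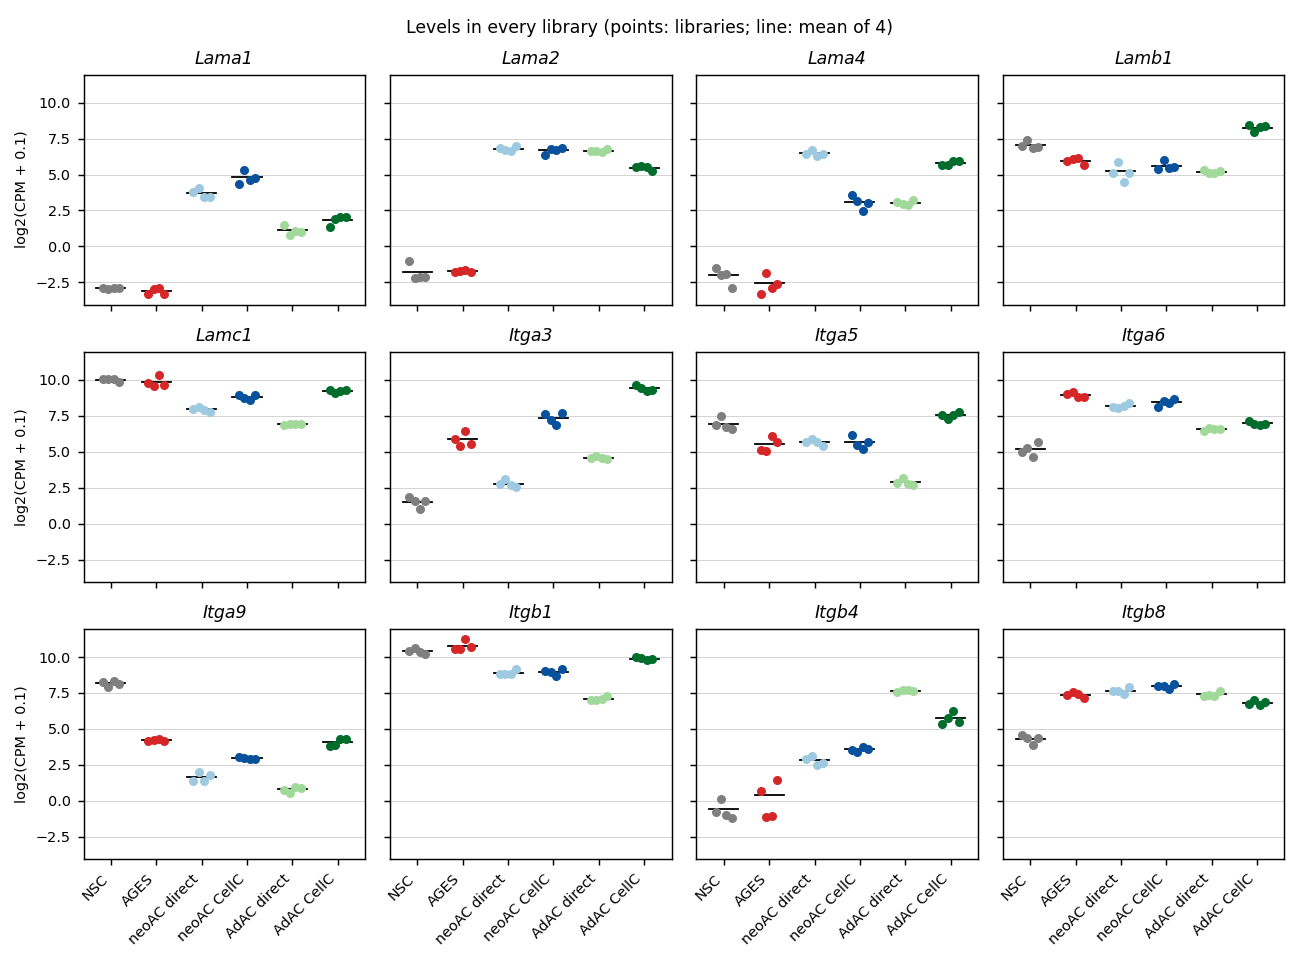
Points are the 4 libraries of each group and lines their mean, on a log2(CPM + 0.1) axis, for 12 members. The Lama4 points of neoAC direct and AdAC CellC lie above those of neoAC CellC and AdAC direct, and the Itga5 points of AdAC direct lie below those of every other group.

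Most laminin and integrin genes were higher in cultured than in directly isolated adult astrocytes. The astrocyte marker sum went down, from 16940 to 17660 CPM in AdAC direct to 784 to 1155 in AdAC CellC. Changes within astrocytes and changes in the mix of cells therefore cannot be told apart. Between AdAC CellC and AdAC direct, 26 members were higher and 8 lower of 36 tested, against 38.8% of all 19691 tested genes higher and 39.2% lower (edgeR's quasi-likelihood test, Benjamini-Hochberg adjusted p under 0.05). The median log2 fold change of the members was 1.03, beside 0.00 over all genes, and the split was 8 higher and 3 lower of 11 laminins and 18 higher and 5 lower of 25 integrins. With at least 10 counts asked in every library, 19 members stayed and 15 were higher and 4 lower.

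Itga3 rose from 23.8 ± 1.503 to 679 ± 81.5 CPM (log2 fold change 4.84 ± 0.22 (SE), edgeR adjusted p = 2.68e-15). Itga5 rose from 7.21 ± 1.18 to 185 ± 22.5 CPM (log2 fold change 4.68 ± 0.26, adjusted p = 1.54e-13) and its partner Itgb1 from 137 ± 13.5 to 946 ± 56.1 CPM (2.79 ± 0.14, adjusted p = 2.68e-15). Next among members with at least 10 CPM in AdAC CellC came Itgb2 (3.95 ± 0.40, adjusted p = 2.46e-09) and Itga2 (3.95 ± 0.23, adjusted p = 5.35e-14). Itgb6, at the floor in AdAC direct and at 1.03 ± 0.374 CPM in AdAC CellC, had a larger fitted change (5.27). Of the laminins, Lamb1 (3.06 ± 0.22, adjusted p = 1.03e-11), Lama4 (2.79 ± 0.18, adjusted p = 7.86e-13), Lama5 (2.59 ± 0.16, adjusted p = 3.22e-13) and Lamc1 (2.33 ± 0.13, adjusted p = 2.40e-14) rose, so chains of all 3 types increased.

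Of the 8 members that fell, those with at least 10 CPM in AdAC direct and the largest falls were Lama3 (from 48.2 ± 7.24 to 10.4 ± 2.65 CPM, -2.21 ± 0.19, adjusted p = 6.11e-11), Itgb4 (-1.91 ± 0.27, adjusted p = 9.41e-07), Lama2 (-1.20 ± 0.11, adjusted p = 2.39e-10) and Lamc3 (-0.89 ± 0.21, adjusted p = 0.00047). The others were Itgad (-2.55 ± 0.44, adjusted p = 1.58e-05), Itga2b, Itga10 and Itgb8. Oligodendrocyte markers (8 of 8 at 1 CPM or more in both groups) went alongside from 26350 to 29350 CPM down to 4201 to 10650 CPM, and fibroblast and meningeal markers went from 109 to 132 up to 1133 to 1592 CPM. The endothelial sum went from 90.5 to 97.3 down to 52.3 to 69.1 CPM, although Pecam1 and Cdh5 went up. The mural sum went from 449 to 479.7 down to 195 to 239 CPM, although Cspg4 went up. The part of these cells in the changes was not tested.

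Partners of these proteins moved as well. Basement membrane partners counted 10 higher and 2 lower of 12 (median 3.00), with Col18a1, the precursor of endostatin, rising (log2 fold change 6.66 ± 0.30, adjusted p = 2.83e-15) and Agrn, the matrix proteoglycan agrin, falling (-0.46 ± 0.12, adjusted p = 0.00163). Integrin ligands other than laminins counted 9 higher and 3 lower of 13 (median 3.94), with Thbs1, thrombospondin, higher (9.21 ± 0.24, adjusted p = 4.30e-20), while Vtn, vitronectin, fell (-3.00 ± 0.28, adjusted p = 1.88e-09). Adhesion adaptors counted 17 higher and 5 lower of 24 (median 1.02), with Actn1, an actin crosslinker (4.20 ± 0.17, adjusted p = 3.16e-17) and Fermt2, an integrin activator (-0.89 ± 0.07, adjusted p = 3.92e-11). Laminin receptors other than integrins counted 6 higher and 5 lower of 12 (median 0.21), from Sdc1, a syndecan (4.80 ± 0.13, adjusted p = 7.50e-20), to Dtna, of the dystrophin complex (-1.94 ± 0.11, adjusted p = 1.96e-14), and latent TGF-beta partners 7 higher and 1 lower of 9 (median 2.94).

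In neonatal astrocytes, members moved in both directions with culture, and 12 of 36 did not pass the test. The astrocyte marker sum went down here too, from 20770 to 23250 CPM in neoAC direct to 4866 to 5670 in neoAC CellC. Between neoAC CellC and neoAC direct, 16 members were higher and 8 lower of 36, against 34.4% of all 19691 tested genes higher and 31.3% lower, with a median of 0.24 beside 0.04 over all genes. The laminins counted 7 higher and 2 lower of 11, and the integrins 9 higher and 6 lower of 25. Scaling by library size alone shifted the median of all genes from 0.04 to 0.27 and gave 8628 genes higher and 4468 lower in place of 6766 and 6170, and 18 members higher and 5 lower, that is 78.3% in place of 66.7% of the called members higher.

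Itga3 rose from 6.77 ± 1.21 to 166 ± 40.5 CPM (4.61 ± 0.23 (SE), edgeR adjusted p = 2.35e-14), followed by Itga2b (2.80 ± 0.18, adjusted p = 5.44e-13), Itga8 (2.50 ± 0.37, adjusted p = 2.05e-06) and Lama3 (2.12 ± 0.20, adjusted p = 1.42e-09). Lama5 rose from 104 ± 19.7 to 312 ± 37.1 CPM (1.58 ± 0.16, adjusted p = 3.64e-09). Lama4 fell from 88.6 ± 11.5 to 8.47 ± 2.63 CPM (-3.39 ± 0.19, adjusted p = 6.44e-14) and Lamc3 from 13.2 ± 4.94 to 1.61 ± 0.0543 CPM (-3.03 ± 0.23, adjusted p = 2.43e-11). Smaller falls were those of Itga2 (-0.82 ± 0.19, adjusted p = 0.000508) and Itga7 (-0.83 ± 0.31, adjusted p = 0.0252), and the Itga7 call was lost without neoAC CellC replicate 2 or 3 or neoAC direct replicate 2 or 3 (adjusted p 0.0505 to 0.0676) and in DESeq2 (0.0859).

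Itga5 (log2 fold change -0.00 ± 0.22, adjusted p = 0.996, 95% interval -0.44 to 0.43) and Itgb1 (0.03 ± 0.13, adjusted p = 0.849, -0.23 to 0.29) did not pass the test in neonatal cells. Endothelial markers summed to 78.8 to 329.6 CPM in neoAC direct (8 of 8 at 1 CPM or more) and 8.798 to 12.2 in neoAC CellC (3 of 8). Mural markers summed to 800 to 1286 and 123 to 146 CPM, with Higd1b at 0 in neoAC CellC. Both lists moved with Lama4 and Lamc3 in neonatal culture. In adult culture both sums and Lamc3 went down, while Lama4 went up. The part of these cells was not tested. neoAC direct replicate 2 had the highest endothelial and mural sums of its group. Its microglia and macrophage sum was also highest (86.98 CPM, against 30.13, 47.87 and 35.37 in replicates 1, 4 and 3), as were its oligodendrocyte and ependymal sums. That library also had the highest Lama4, Lamc3, Itga4 and Itgam of its group. Without it Itgam no longer passed (adjusted p = 0.0733, against 0.00719 with it, where Itgam was at the floor in neoAC CellC and at least 4.31-fold lower).

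Basement membrane partners counted 9 higher and 3 lower of 12 (median 0.97), with Npnt, the Itga8 ligand nephronectin (2.34 ± 0.14, adjusted p = 3.75e-13) and Nid1, the laminin linker nidogen (-2.18 ± 0.13, adjusted p = 1.19e-13). Ligands other than laminins counted 6 higher and 7 lower of 13 (median -1.02), from Ccn2, a matricellular protein (5.28 ± 0.29, adjusted p = 3.27e-13), to Mfge8, a ligand of Itgav receptors (-4.35 ± 0.14, adjusted p = 2.83e-18). Adhesion adaptors counted 15 higher and 6 lower of 24 (median 0.66), laminin receptors other than integrins 7 higher and 4 lower of 12 (median 0.48), and latent TGF-beta partners 4 higher and 4 lower of 9 (median -0.57).

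The adult and neonatal culture comparisons use separate libraries, so the members can be read across them. Of 36 members, 11 rose at both ages (among them Itga3, Itga9, Lama5 and Lamc1), Lamc3 fell at both, 7 rose in adult and fell in neonatal cells (Itga2, Itga4, Itga7, Itgam, Itgav, Itgb5 and Lama4) and 5 fell in adult and rose in neonatal cells (Itga10, Itga2b, Itgb4, Itgb8 and Lama3). In neonatal cells, the falls of Itgav, Itgb5 and Itga7 did not pass with scaling by library size alone (adjusted p = 0.129, 0.143 and 0.0934), and that of Itga7 was lost without any 1 of 4 libraries. The adult rise of Itga7 (edgeR adjusted p = 0.0307) was lost without some single libraries (0.0507 to 0.0669). That rise was also lost with DESeq2's size factors (0.0523) and with no filter (0.11). The neonatal rise of Itgb8 (0.29 ± 0.12, adjusted p = 0.0379) was lost without any 1 of 6 libraries, with no filter on low counts (adjusted p = 0.117) and in the fit of the compared groups (0.0507). That of Itgb4 (0.77 ± 0.29, adjusted p = 0.0232) was lost without any 1 of 3 libraries, with no filter (0.0876) and in DESeq2 (0.128). Of the 11 that rose at both ages, Itgb6 and Lamb2 passed narrowly in neonatal cells (edgeR adjusted p = 0.0428 and 0.0467). Both of these calls were lost without some single libraries and with no filter (0.0606 and 0.175). A further 8 rose in adult cells and did not pass in neonatal cells, among them Itga5, Itgb1, Itgb2 and Lamb1. Of all 19691 tested genes, 38.8% rose and 39.2% fell in adult culture, and 34.4% rose and 31.3% fell in neonatal culture. Their split across both ages was not counted, so whether these member counts differ from it is not known.

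The interaction of culture and age, the adult minus the neonatal log2 change, passed for 26 members, 19 positive and 7 negative of 36, against 35.4% of all genes positive and 33.2% negative (median 1.00 beside 0.05). With library size alone the median of all genes was -0.10 and 18 members were positive and 7 negative. Differences passed for Lama4 (6.18 ± 0.26, adjusted p = 5.29e-16), Itga2 (4.77 ± 0.30, adjusted p = 4.62e-13), Itga5 (4.68 ± 0.33, adjusted p = 2.55e-11), Itgb1 (2.76 ± 0.19, adjusted p = 2.48e-12) and Lamb1 (2.67 ± 0.29, adjusted p = 3.11e-08). They passed on the negative side for Lama3 (-4.33 ± 0.28, adjusted p = 5.92e-13), Itga2b (-3.54 ± 0.23, adjusted p = 1.22e-12) and Itgb4 (-2.67 ± 0.39, adjusted p = 2.64e-06). Itga3 (0.23 ± 0.28, adjusted p = 0.492), Itga6 (0.17 ± 0.20, adjusted p = 0.484), Itga8 (-0.12 ± 0.55, adjusted p = 0.86) and Lama1 (-0.36 ± 0.28, adjusted p = 0.263) did not pass. Among the partner lists it was positive for 10 of 13 ligands, 10 of 12 basement membrane partners, 15 of 24 adaptors, 6 of 9 latent TGF-beta partners and 4 of 12 other laminin receptors, and negative for 2, 2, 5, 3 and 7.

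**Figure D5:**
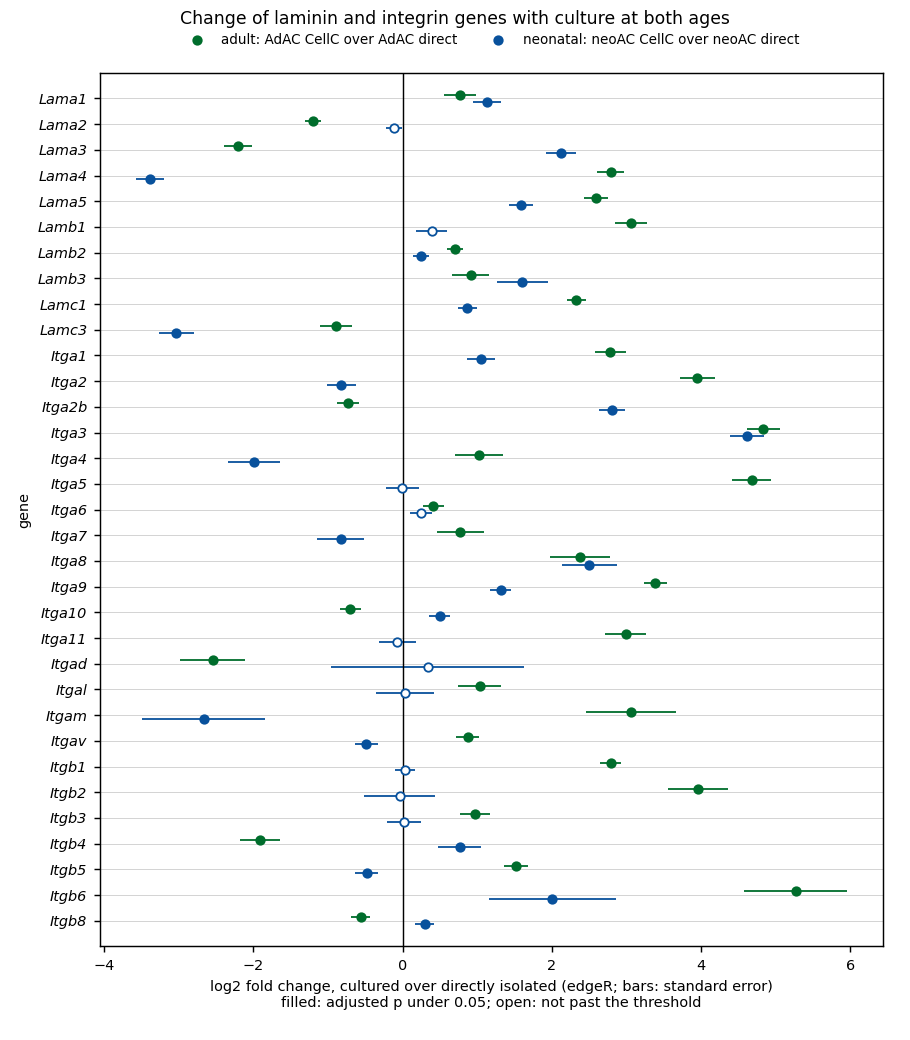
Each row is a member, with the log2 fold change of cultured over directly isolated cells in adult (green) and neonatal (blue) astrocytes from edgeR, bars for the standard error, and open points where the adjusted p was not under 0.05. Itga3 points of both ages lie together near 4.84 and 4.61, whereas those of Lama4 lie at 2.79 and -3.39.

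Between NSC and AGES, integrin subunits changed in both directions, and the abundant laminin chains Lama5 and Lamc1 did not pass the test. Between AGES and NSC, 13 members were higher and 10 lower of 36, against 31.7% of all 19691 tested genes higher and 34.0% lower, with medians of 0.03 and 0.00. Of the 11 laminins 3 were higher and 2 lower, and of the 25 integrins 10 were higher and 8 lower. AGES were grown on laminin and NSC on gelatin, so BMP4, medium and coat cannot be told apart.

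Itga3 rose from 2.797 ± 0.671 to 58.6 ± 20.7 CPM (log2 fold change 4.39 ± 0.24 (SE), edgeR adjusted p = 5.62e-14). Itga6 rose from 36.6 ± 10.96 to 495 ± 59.5 CPM (3.75 ± 0.16, adjusted p = 1.64e-16) and Itgb8 from 19.8 ± 3.58 to 168 ± 17.7 CPM (3.08 ± 0.14, adjusted p = 1.93e-16). Itga9 fell from 289.5 ± 34.4 to 18.3 ± 0.713 CPM (-3.98 ± 0.13, adjusted p = 8.27e-19) and Itga8 from 14.4 ± 4.46 to 4.16 ± 2.59 CPM (-1.78 ± 0.34, adjusted p = 6.91e-05). Itgav fell from 464 ± 54.1 to 151 ± 42.1 CPM (-1.63 ± 0.16, adjusted p = 1.13e-09) and Itga5 from 124 ± 37.4 to 46.7 ± 15.8 CPM (-1.41 ± 0.22, adjusted p = 7.10e-06). Lama5 (0.07 ± 0.15, adjusted p = 0.731, 95% interval -0.23 to 0.37) and Lamc1 (-0.11 ± 0.12, adjusted p = 0.464, -0.35 to 0.14) did not pass, and Lamb2 rose (1.61 ± 0.11, adjusted p = 1.04e-12) while Lamb1 fell (-1.09 ± 0.20, adjusted p = 5.64e-05).

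Itgb1 passed narrowly (0.39 ± 0.13, adjusted p = 0.0117), with overlapping libraries, and the call was lost without AGES replicate 3 (0.21, adjusted p = 0.122), the library with the highest Itgb1, Itga3, Itgav, Itga5 and Lamc1 of AGES. The other laminin receptors counted 10 higher and 1 lower of 12 (median 1.36). Ligands counted 6 higher and 3 lower of 13, with Fn1, fibronectin (4.91 ± 0.30, adjusted p = 1.18e-12), and basement membrane partners 8 higher of 12, with Sparc, a collagen-binding matrix protein (3.30 ± 0.17, adjusted p = 3.53e-15). Adaptors counted 18 higher and 4 lower of 24, with Ptk2, focal adhesion kinase (-1.42 ± 0.06, adjusted p = 1.70e-16), and latent TGF-beta partners 2 higher and 3 lower of 9. The medians of these 4 lists were 0.71, 0.97, 0.68 and 0.05.

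AGES had little or no RNA of several laminin chains and integrins that cultured primary astrocytes expressed. Strain and medium differed between them as well, so cell origin, strain and medium cannot be told apart. Against AdAC CellC, 6 members were higher and 24 lower of 36, with 31.0% of all 19691 tested genes higher and 45.2% lower, and the median was -1.98 beside -0.23. The laminins counted 2 higher and 7 lower of 11 and the integrins 4 higher and 17 lower of 25. Scaling by library size alone moved the median of all genes to -0.45 and kept 6 members higher and 24 lower. With at least 10 counts in every library, 19 members stayed and 6 were higher and 8 lower.

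Lama4 was at 0.06797 CPM in AGES against 56.2 ± 6.66 in AdAC CellC (log2 fold change -9.50 ± 0.33 (SE), edgeR adjusted p = 1.26e-18) and Lama2 at 0.205 against 44 ± 4.395 CPM (-7.72 ± 0.19, adjusted p = 9.64e-22). Itga2, at the floor in AGES, was at least 104-fold lower than in AdAC CellC (floor of 3 counts per library, adjusted p = 1.96e-16), and Itgb4 was lower (-5.49 ± 0.36, adjusted p = 2.68e-12). Higher in AGES were Itga6 (1.97 ± 0.15, adjusted p = 7.98e-12), Lamb2 (1.02 ± 0.11, adjusted p = 3.92e-09), Itgb1 (0.90 ± 0.13, adjusted p = 1.06e-06) and Itga2b (0.79 ± 0.15, adjusted p = 5.30e-05). Itga3 was lower (-3.53 ± 0.21, adjusted p = 2.11e-13), while Lama5 (0.29 ± 0.15, adjusted p = 0.0882, 95% interval -0.01 to 0.60) did not pass. Without AGES replicate 2 the Lama4 estimate was -10.53, and without AGES replicate 4 that of Itgb4 was -6.23.

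Ligands other than laminins counted 1 higher and 11 lower of 13 (median -5.16), Fn1 being the exception (0.96 ± 0.26, adjusted p = 0.00199), and Nid1 was lower (-8.08 ± 0.19, adjusted p = 4.19e-22) in basement membrane partners (4 higher and 7 lower of 12, median -1.24). Adaptors counted 6 higher and 15 lower of 24 (median -0.73), latent TGF-beta partners 1 higher and 8 lower of 9 (median -1.80), and the other laminin receptors 8 higher and 2 lower of 12 (median 0.66). Oligodendrocyte markers summed to 22.8 to 43.3 CPM in AGES, endothelial markers to 0.858 to 1.44 and fibroblast and meningeal markers to 16.5 to 19.8 (Lum at 0), all below AdAC CellC, and their part in the lower Lama2, Lama4 and Itgb4 was not tested.

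Against neoAC CellC, 11 members were higher and 19 lower of 36 in AGES, with 34.1% of all 19691 tested genes higher and 40.5% lower, and the median was -1.05 beside -0.07. The laminins counted 4 higher and 5 lower and the integrins 7 higher and 14 lower. Scaling by library size alone gave 8 members higher and 21 lower, and 4504 genes higher and 9822 lower in place of 6710 and 7977, with the median of all genes at -0.37. With at least 10 counts in every library, 6 members were higher and 8 lower of 19. These AGES libraries are those of the comparison with AdAC CellC, and here too cell origin, strain and medium cannot be told apart.

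Lama1, at the floor in AGES and 27.9 ± 8.26 CPM in neoAC CellC, was at least 280-fold lower (adjusted p = 3.71e-18). Lama2 was lower (log2 fold change -8.94 ± 0.19 (SE), edgeR adjusted p = 4.56e-23), as were Itgb4 (-3.32 ± 0.36, adjusted p = 1.79e-08) and Itga7 (-3.31 ± 0.35, adjusted p = 2.16e-08), whose estimates were -4.06 and -3.95 without AGES replicate 4. Higher were Itgb1 (1.83 ± 0.14, adjusted p = 4.87e-12), Itga9 (1.24 ± 0.13, adjusted p = 2.97e-09) and Lamc1 (1.07 ± 0.13, adjusted p = 2.96e-08). Itga5 (-0.11 ± 0.22, adjusted p = 0.653, 95% interval -0.55 to 0.32) and Lamb1 (0.35 ± 0.20, adjusted p = 0.129, -0.05 to 0.75) did not pass. Partner lists counted 4 higher and 7 lower of 12 for basement membrane partners (median -0.85), with Col4a6, a collagen chain of basement membranes (-8.05 ± 0.15, adjusted p = 4.90e-24). They counted 2 higher and 10 lower of 13 for ligands (median -1.74), 12 higher and 9 lower of 24 for adaptors (median 0.20), 6 higher and 5 lower of 12 for other laminin receptors (median 0.09) and 2 higher and 6 lower of 9 for latent TGF-beta partners (median -1.24). Ependymal and choroid markers summed to 66.3 to 90.4 CPM in AGES and 2017 to 3044 in neoAC CellC, fibroblast and meningeal markers to 16.5 to 19.8 and 497 to 792 CPM, and oligodendrocyte markers to 22.8 to 43.3 and 248 to 330.4 CPM. Their part in these differences was not tested.

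Between the cultured primary cells, most members were lower in neonatal than in adult astrocytes. In neoAC CellC against AdAC CellC, 6 members were higher and 24 lower of 36, with 28.5% of all 19691 tested genes higher and 35.2% lower and a median of -1.14 beside -0.08. The split was 3 higher and 7 lower of 11 laminins and 3 higher and 17 lower of 25 integrins, and 10 lower and 4 higher of 19 with at least 10 counts in every library. DESeq2's size factors moved the median of all genes to 0.02 and gave 6 members higher and 23 lower.

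Itgb2 (log2 fold change -4.47 ± 0.42 (SE), edgeR adjusted p = 1.20e-09), Lama4 (-2.73 ± 0.18, adjusted p = 3.64e-12), Lamb1 (-2.64 ± 0.21, adjusted p = 2.73e-10) and Itgb4 (-2.17 ± 0.28, adjusted p = 4.72e-07) were lower in neoAC CellC than in AdAC CellC. Higher were Lama1 (2.98 ± 0.20, adjusted p = 3.70e-12), Itga6 (1.46 ± 0.15, adjusted p = 4.44e-09), Lama2 (1.22 ± 0.11, adjusted p = 4.14e-10) and Itga8 (1.19 ± 0.34, adjusted p = 0.00354). Itga3 was also lower (-2.03 ± 0.20, adjusted p = 3.99e-09), as was Itga5 (-1.87 ± 0.23, adjusted p = 1.91e-07). Of 24 adaptors 19 were lower (median -0.64), with Ptk2b, a focal adhesion kinase relative (-2.05 ± 0.16, adjusted p = 7.03e-11). Ligands counted 1 higher and 10 lower of 13 (median -1.74), with Spp1, osteopontin (-4.30 ± 0.45, adjusted p = 5.09e-08). The counts were 1 higher and 6 lower of 9 for latent TGF-beta partners (median -1.11), 5 higher and 5 lower of 12 for basement membrane partners (median -0.06) and 8 higher and 2 lower of 12 for other laminin receptors (median 0.71). Oligodendrocyte markers summed to 248 to 330.4 CPM in neoAC CellC and 4201 to 10650 in AdAC CellC, and fibroblast and meningeal markers to 497 to 792 and 1133 to 1592 CPM, the latter through Col1a1 and Col1a2. Ependymal and choroid markers, highest in neoAC CellC like Lama1, summed to 2017 to 3044 and 499 to 736 CPM. The part of these cells was not tested.

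Directly isolated cells of the 2 ages differed in both directions. In neoAC direct against AdAC direct, 16 members were higher and 11 lower of 36, with 35.0% of all 19691 tested genes higher and 36.4% lower and a median of 0.33 beside 0.00. The laminins counted 5 higher and 3 lower and the integrins 11 higher and 8 lower. Asking at least 10 counts in every library left 16 called, 11 higher and 5 lower.

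Higher in neonatal cells were Itga2 (log2 fold change 3.93 ± 0.23 (SE), edgeR adjusted p = 9.43e-14), Lama4 (3.44 ± 0.19, adjusted p = 3.06e-14), Itga5 (2.81 ± 0.25, adjusted p = 6.47e-10) and Lama1 (2.61 ± 0.21, adjusted p = 3.60e-11), and Itgb1 was higher too (1.82 ± 0.14, adjusted p = 8.03e-12). Lower were Itgb4 (-4.84 ± 0.31, adjusted p = 3.42e-12), Lama3 (-4.32 ± 0.21, adjusted p = 2.56e-15), Itga2b (-3.44 ± 0.18, adjusted p = 7.55e-15) and Itga3 (-1.81 ± 0.21, adjusted p = 6.28e-08). Lama2 (0.15 ± 0.11, adjusted p = 0.223, 95% interval -0.06 to 0.35) and Lamb1 (0.03 ± 0.21, adjusted p = 0.917, -0.38 to 0.43) did not pass. Itga4 passed (0.92 ± 0.33, adjusted p = 0.0146) and was lost without neoAC direct replicate 2 (0.38, adjusted p = 0.229). Oligodendrocyte markers summed to 322 to 395 CPM in neoAC direct and 26350 to 29350 in AdAC direct, and mural markers to 800 to 1286 and 449 to 479.7 CPM. Of the mural list, Notch3 (560 ± 124.9 against 62.9 ± 7.995 CPM), Rgs5, Cspg4 and Anpep were higher in neoAC direct. Pdgfrb, Vtn, Kcnj8 and Higd1b were lower there. The part of these cells was not tested.

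Of 12 basement membrane partners 11 were higher (median 2.07), with Nid1, nidogen (3.70 ± 0.14, adjusted p = 1.23e-17). Ligands counted 9 higher and 3 lower of 13 (median 1.73), with Tnc, tenascin C, an Itga9 ligand (7.74 ± 0.31, adjusted p = 3.32e-16) and Edil3, an Itgav ligand (-5.72 ± 0.21, adjusted p = 4.16e-17). Adaptors counted 10 higher and 7 lower of 24 (median 0.04), other laminin receptors 6 higher and 4 lower of 12 (median 0.15) and latent TGF-beta partners 3 higher and 2 lower of 9 (median 0.02).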

How the data were processed

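RNA was measured in 24 libraries, 4 per group, with a stranded mRNA kit and paired reads. The authors aligned reads with STAR 2.7.3a to GRCm38 and counted them per gene with featureCounts over Gencode exons, and the raw counts were used as deposited. Per the study's methods, a replicate was a separate isolation or culture passage.

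Counts were fitted in edgeR 4.0.16 (R 4.3.3) by the quasi-likelihood test, with TMM scaling, filterByExpr and 1 fit of 6 groups, and p-values were Benjamini-Hochberg adjusted over 19691 genes. Log2 fold changes carry standard errors (SE), and bounds of folds use 3 counts per library. Exon lengths came from Gencode vM21, to which 99.3% of genes matched. Full statistics went to the 4 highest and 4 lowest called members per comparison with separate libraries and at least 10 CPM, and other members with statistics were chosen after their values were seen. Partner genes are the 2 with the largest rise and fall of each list, of which some are given. The members and lists were chosen with earlier results of these data known. Alternatives were DESeq2 1.42.0, other scalings and filters, a fit of the compared groups, a replicate block and leaving out each library. Some genes are not reported here. The code was tested on simulated data.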

Additional observations from a re-analysis of the deposited data

Results flagged for a closer look

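In 7 of 158 group levels, 1 library stood apart from the other 3 of its group by Dixon's criterion, which chance meets in about 1 in 20 groups. They were Itga1 in AdAC direct replicate 4 (8.575 CPM), Itga11 in neoAC CellC replicate 1 (0.9672 CPM), Itgb1 in neoAC direct replicate 4 (581 CPM), Itgb5 in neoAC CellC replicate 1 (330.9 CPM), Itgb8 in AdAC direct replicate 4 (199.8 CPM), Lama2 in AdAC CellC replicate 4 (37.48 CPM) and Lamc1 in NSC replicate 4 (906.7 CPM).

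The change with culture differed between the ages for the following members by edgeR's interaction test. Of the laminins, the adult minus neonatal log2 change was 6.18 for Lama4, 2.67 for Lamb1, 2.14 for Lamc3, 1.46 for Lamc1, 1.01 for Lama5 and 0.46 for Lamb2, and -4.33 for Lama3 and -1.08 for Lama2. Of the integrin alpha subunits it was 5.72 for Itgam, 4.77 for Itga2, 4.68 for Itga5, 3.06 for Itga11, 3.02 for Itga4, 2.07 for Itga9, 1.74 for Itga1, 1.60 for Itga7 and 1.36 for Itgav, and -3.54 for Itga2b and -1.20 for Itga10. Of the beta subunits it was 4.00 for Itgb2, 2.76 for Itgb1, 2.00 for Itgb5 and 0.96 for Itgb3, and -2.67 for Itgb4 and -0.86 for Itgb8. Without neoAC direct replicate 2 the value was 3.07 for Itgb2 and 4.90 for Itgam, which was at the floor in neoAC CellC, so its fitted value is no bound.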

How the results depend on the processing

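Of 3453 alternative values of the 224 called member results, 3353 kept their direction and call, 100 kept the direction without passing, and none turned around. Asking at least 10 counts in every library left 19 members to be tested, so fewer could be called. Of the called results still tested, 6 did not pass with this filter. It gave 19 called, 15 higher and 4 lower in adult culture, 3 lower in neonatal culture, 5 lower in AGES against NSC, 14 called and 8 lower in AGES against AdAC CellC, 14 called, 6 higher and 8 lower in AGES against neoAC CellC, 14 called and 10 lower in neoAC CellC against AdAC CellC, 16 called and 5 lower in neoAC direct against AdAC direct, and 15 called and 10 positive for the interaction. An absolute log2 fold change over 1 gave 4 lower in adult culture, 15 called and 4 lower in neonatal culture, 2 higher in AGES against AdAC CellC and 6 higher in AGES against neoAC CellC. Library size alone gave 5 lower in neonatal culture.

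Same-numbered libraries did not deviate together (correlations -0.095 to 0.106, own number best in at most 2 of 4 pairs), so no pairing by number was seen. Whether they shared an isolation or passage was not given in the sources used here. With a replicate block in a fit of the compared groups alone, fewer members were tested in most comparisons. Called were 34 of 36 in adult culture, 22 of 30 in neonatal culture and 21 of 24 in AGES against NSC. In AGES against AdAC CellC and neoAC CellC, 31 of 35 and 28 of 31 were called. Between ages, 30 of 35 were called in cultured and 29 of 33 in direct cells, and 26 of 36 for the interaction. Leaving out 1 library kept every member count within 1.5 times, and 17 called results lost their call without some library. Itga7 in adult culture was lost in DESeq2 (adjusted p = 0.137), as was Itgb4 in neonatal culture (0.128). Members at 3 counts or fewer in every library of a group could not be ranked there.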
